A study of Mus musculus with 2 samples.

Results

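Classical monocytes were selected from a droplet scRNA-seq comparison of CD45.2+ tumor-infiltrating immune cells (TIIs) from control and creatine-treated mice. They were chosen by their own UMI counts (unique molecular identifiers, 1 per captured transcript). Among cells with at most 25% mitochondrial UMIs, a cell was taken when it held at least 10 UMIs of *Lyz2* and at least 5 of *Ly6c2* and *Vcan* together. It also had to hold no UMI of *Cd3d*, *Cd3e* or *Cd3g*, fewer than 10 of *C1qa*, *C1qb* and *C1qc*, fewer than 3 of *Ace*, *Adgre4* and *Treml4*, and none of *Flt3*, *Cxcr2* or *Retnlg*. This gate held 513 of 13470 kept cells, 175 of 7241 control cells and 338 of 6229 creatine cells. What the gate used is given below as a description only.

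Both libraries came from male C57BL/6J mice with subcutaneous B16-OVA tumors, a melanoma line that carries the ovalbumin antigen. The creatine group received creatine monohydrate i.p. (10.5 mg per mouse per day) and the control group received PBS. By the sample labels and the sequencing methods, each library pooled 4 tumors taken on day 14, and 10000 live cells sorted for CD45.2 were loaded per library. Other passages of the study give an earlier day and another number of mice for these libraries, a conflict that the files do not settle. The protocol text attached to the control sample also describes the creatine injection, so the groups rest on the sample titles and treatment labels. With 1 library per group there were no replicates and no test between the groups was possible. All intervals below are 95% intervals that cover counting error only, and a difference between mice, pools or library preparations cannot be told apart from the treatment.

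Classical monocytes are short-lived Ly6C-high cells that leave the bone marrow through the chemokine receptor CCR2 and enter inflamed tissue and tumors. There they can mature into macrophages or into DC-like cells, and in the blood they can convert into nonclassical Ly6C-low monocytes, which patrol vessels and depend on the transcription factor NR4A1. In tumors, interferon-γ from T cells and NK cells and low oxygen are both known to shape what these cells express. *Ly6c2* encodes a GPI-anchored Ly6C protein, *Vcan* the matrix proteoglycan versican, and *Lyz2* lysozyme. In the GENCODE M21 annotation of GRCm38 (mm10) these genes lie at chr15:75108158-75111970, chr13:89655312-89742509 and chr10:117277331-117282321.

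The gated control cells held 1545183 UMIs and the gated creatine cells 3415980. Their median depth was 8234 UMIs and 2577 genes per cell in the control library, against 9609 UMIs and 2827.5 genes in the creatine library. The lowest cell held 1646 and 1597 UMIs, and the highest 19437 and 24001, respectively. The files share 30 barcodes, and 1 gated creatine cell carried a barcode that the control file also held. No barcode was gated as classical in both libraries.

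Classical monocytes were a larger share of the TIIs in the creatine library. They were 2.42% of kept cells in the control library (exact Clopper-Pearson interval 2.08 to 2.80%) and 5.43% in the creatine library (4.88 to 6.02%), a ratio of 2.25. This ratio rests in part on the exclusions. The *Lyz2*, *Ly6c2* and *Vcan* minimums alone left 532 of 7241 control and 760 of 6229 creatine cells. The *Cd3* step then removed 192 and 177 of these, and the C1q step 134 and 94 of those left. The comparison gates moved in different directions. Nonclassical monocytes, gated on at least 3 UMIs of *Ace*, *Adgre4* and *Treml4*, were 1.30% and 4.13% of kept cells. Macrophages, gated on at least 10 UMIs of *C1qa*, *C1qb* and *C1qc*, were 9.79% and 4.75%. The nonclassical gate also required fewer than 10 C1q UMIs, and the macrophage gate fewer than 3 of *Ace*, *Adgre4* and *Treml4*. Both left out cells with a UMI of *Cd3d*, *Cd3e*, *Cd3g*, *Flt3*, *Cxcr2* or *Retnlg*. Classical monocytes thus made up 17.9% of the cells in the 3 gates of the control library and 37.9% of those in the creatine library. A share of sorted cells rises when other cells are fewer, and no absolute number per tumor was analysed here.

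**Figure D1:**
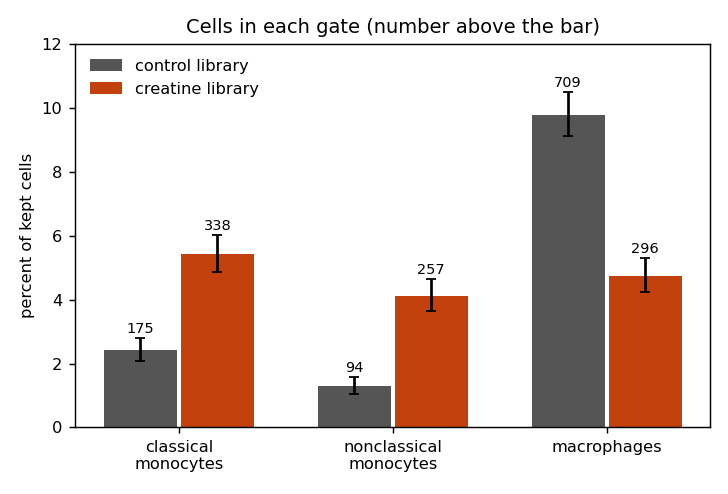
Percent of kept cells (y axis) in the classical monocyte, nonclassical monocyte and macrophage gates of the control (gray) and creatine (orange) libraries, with exact 95% intervals for counting error and the number of cells above each bar. Both monocyte gates held a larger share in the creatine library, and the macrophage gate held a smaller one (9.79% against 4.75%).

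The gate was met mainly through *Ly6c2*. A *Ly6c2* UMI was present in 97.7% of gated control cells and 99.7% of gated creatine cells, with medians of 9 and 13 UMIs per cell. *Vcan* was present in 65.1% and 43.5%, with medians of 1 and 0 UMIs. The *Lyz2* medians were 136 and 238 UMIs. The gate therefore took cells with more *Ly6c2* and *Lyz2* and less *Vcan* in the creatine library. Summed over the gate, *Vcan* was at 349 CPM (UMIs of a gene scaled to a common total per library) in control cells and at 142 CPM in creatine cells. Cells that passed with only 5 or 6 UMIs of *Ly6c2* and *Vcan* numbered 31 and 41, and cells left out with 3 or 4 numbered 41 and 35. In the control library those just inside held 2130 CPM of *Plac8* and those just outside 1328 CPM. In the creatine library the values were 3873 and 3389 CPM. Other monocyte genes did not all fall outside this edge. *Ly6i* was at 160 CPM inside and 71.2 outside in the control library, and *Ccr1* at 410 and 430. In the creatine library *Ly6i* was at 98.4 CPM inside and 129 outside, and *Ccr1* at 373 and 200.

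*Ly6i* and *Ccr1*, which the gate did not read, were seen in a larger share of gated cells than of T cells. *Ly6i*, another Ly6 family member, had a UMI in 30.9% of control and 35.2% of creatine gated cells, and the chemokine receptor gene *Ccr1* in 83.4% and 66.0%. T cells of the same libraries were gated on at least 3 *Cd3d*, *Cd3e* and *Cd3g* UMIs and fewer than 10 of *Lyz2*. In these T cells *Ly6i* was seen in 1.00% and 0.86% and *Ccr1* in 7.58% and 4.28%, at median depths of 8407.5 and 9432 UMIs. The *Lyz2* limit left out T cells with more *Lyz2* RNA, so the 2 gates differ in *Lyz2* by choice. *Ccr2* was at 1804 CPM in control and 1845 CPM in creatine classical monocytes. It was at 436 and 359 CPM in macrophages and at 840 and 975 CPM in nonclassical monocytes. The markers were thus present, and of these gates the classical one held the highest *Ccr2* level in both libraries.

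Some gated cells held transcripts of other cell types. The 12 NK cell markers summed to 162 CPM in the control library (1 marker at 0) and 393 CPM in the creatine library (none at 0), and *Klrk1* was the most abundant in both. At least 5 UMIs of them were present in 11 of 175 control and 49 of 338 creatine cells. The 10 B cell markers summed to 80.2 and 243 CPM, led by *Ighm*, and the defining markers *Cd79a*, *Ms4a1* and *Pax5* were at 0 in the control gate. The 12 T cell markers other than the gate genes summed to 122 and 84.3 CPM, and the 14 neutrophil markers other than the gate genes to 308 and 302 CPM, with *Ly6g*, *Camp* and *Ngp* at 0 in both libraries. The 12 cDC markers summed to 40.8 and 115 CPM, and *Cd209a* made up 223 of the 393 creatine UMIs. The 8 pDC markers summed to 431 and 433 CPM, of which *Bst2*, which monocytes also express, made up 345 and 331 CPM. The 10 melanoma markers summed to 162 and 84.6 CPM, and the 13 markers of other stroma to 20.7 and 10.2 CPM. To examine the part of these cells in the results below, those with lymphocyte markers were left out. Separately, the 6% of cells with the highest Scrublet doublet scores were left out, which took 0 control and 9 creatine cells from the gate. Cells with markers of the other types were not left out on those markers.

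Against macrophages, classical monocytes were higher in most genes of the classical monocyte list and lower in most genes of the macrophage and dividing cell lists. A gene was called when its CPM differed by at least 1.5-fold with an interval that left out 1 and at least 50 UMIs stood behind it, in both libraries and in the same direction. By that rule 602 of 8974 genes were called higher (6.71%) and 1188 lower (13.2%). Both gates were chosen on measured genes, so these counts describe the gates. *Hp*, which encodes the hemoglobin-binding protein haptoglobin, was at 351 CPM against 15.5 in the control library and 575 against 17.5 in the creatine library. *Ifitm6*, *Chil3*, *Mcemp1*, *Gsr*, *Gm9733*, *Plac8*, *Sorl1* and *Nr4a1* were also among the 10 largest differences. At the other end, the chemokine gene *Ccl8* was at 24.6 CPM in control classical monocytes against 1987 CPM in macrophages, and at 25.5 against 3734 CPM in the creatine library. *Vcam1*, *Cadm1*, *Atp6v0d2*, *Pdgfc*, *Blnk*, *Ulbp1* and the cell division genes *Cdkn3*, *Cit* and *Stmn1* were the others.

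The classical monocyte list (22 genes other than the gate genes) had 18 members called higher than in macrophages and none lower, with medians of 1.48 and 1.62 log2 units in the control and creatine libraries. The list of 25 macrophage genes had 21 of 24 tested members called lower, with medians of -1.91 and -3.54. The dividing cell list had 22 of 23 members called lower. A UMI of *Mki67* or *Top2a*, both made in cycling cells, was present in 12.6% of control and 13.9% of creatine classical monocytes. It was present in 42.0% and 51.0% of macrophages, whose median depth was higher (13506 and 18662 UMIs).

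Against nonclassical monocytes, 296 of 5206 genes were called higher in both libraries (5.69%) and 360 lower (6.92%). The platelet factor gene *Pf4* was at 102 CPM against 1.64 in the control library. In the creatine library it was at 33.1 CPM against no UMI, a log2 ratio of at least 4.66 with the nonclassical library set to 3 counts. Single cells held 72.2% of the control and 94.7% of the creatine *Pf4* UMIs of the classical gate. *Dab2*, *Sdc4*, *C3ar1*, *Creb5*, *Iigp1*, *Lpl*, *Cxcl16*, *Ccl7* and *Cxcl9* followed. *Slc12a2*, an ion cotransporter gene, had no UMI in control classical monocytes against 102 in nonclassical ones. It was at 1.46 CPM against 133 in the creatine library. *Ear2*, *Cd36*, *Pglyrp1*, *Hes1*, *Spn* (CD43), *Cyth3*, *Bcl2*, *Cd9* and *Dusp16* were the other genes furthest below. All 16 members of the nonclassical list were called lower in the classical gate, with medians of -3.26 and -2.55. Of 22 classical list members, 8 were called higher and none lower, at medians of 0.41 and 0.38.

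**Figure D2:**
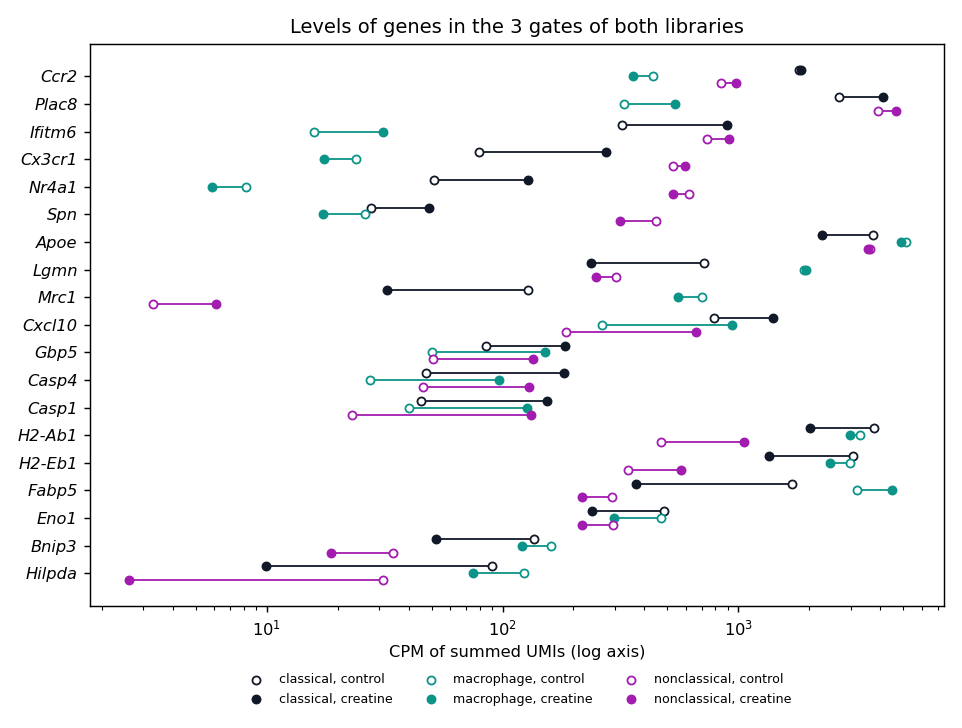
CPM of summed UMIs (x axis, log scale) of genes from the lists in classical monocytes (black), macrophages (teal) and nonclassical monocytes (purple), with open circles for the control and filled circles for the creatine library. *Ccr2* lies at 1804 and 1845 CPM in classical monocytes, to the right of both other gates, and *Hilpda* lies far apart between libraries in that gate (90.6 against 9.95 CPM).

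Within the classical gate, creatine and control libraries were compared on the same scale. Of 7301 genes with at least 50 UMIs over both sums, 552 were called higher in the creatine library (7.56%) and 439 lower (6.01%), and the median log2 ratio of all of them was 0.04. The 10 largest increases were *Igkc*, *Gzma*, *Cd209a*, *BC035044*, *Stxbp6*, *Gm47283*, *Galnt9*, *Rbpms*, *Hpgd* and *Pdlim1*. The first members of this group rested on few cells. *Igkc*, an immunoglobulin light chain gene, had 2 UMIs in control and 146 in creatine cells, and 50.7% of the latter lay in 1 cell. *Gzma*, a granzyme gene of cytotoxic lymphocytes, had 5 and 353 UMIs, the latter in 32 cells. It was also higher over all kept cells (284 and 896 CPM), in T cells (74.3 and 177 CPM) and, by log2 ratios of 2.108 and 1.203, in macrophages and nonclassical monocytes. *Cd209a*, a lectin gene of monocyte-derived DCs, had 13 and 223 UMIs, the latter in 28 cells. In contrast, *Stxbp6* was spread over 124 creatine cells, with 10.4 CPM in the control and 55.6 CPM in the creatine library. *Hpgd*, which encodes a prostaglandin-degrading enzyme, was at 20.1 and 87.8 CPM. *Gm47283* was at 9.71 and 45.4 CPM, and over all kept cells it was at 15.2 and 68.6 CPM, so its difference was present across the libraries.

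The 10 largest decreases included *Spp1*, *Hilpda*, *Dab2*, *Emp1*, *Ccl7*, *Thbs1*, *Rgs1*, *Fabp5* and *Adam8*. *Spp1*, which encodes osteopontin, was at 261 CPM in the control and 19.3 CPM in the creatine library. A single control cell held 70.2% of its UMIs, and without the cell with the most UMIs in each library the log2 ratio was -2.30 instead of -3.75. *Ccl7* was at 326 and 65.9 CPM, with 45.4% and 42.2% in single cells. *Fabp5*, a fatty acid-binding protein gene, was spread more evenly and was at 1696 CPM in control and 369 CPM in creatine cells, with a log2 ratio of -2.20 (-2.30 to -2.10). Its level was not lower in creatine macrophages (3180 and 4500 CPM). *Dab2* was at 201 and 33.1 CPM, and *Thbs1* (thrombospondin 1) at 277 and 58.3 CPM. After thinning to 2000 UMIs, *Thbs1* was seen in 12.8% of control and 8.0% of creatine cells, with overlapping intervals. *Thbs1* was also called lower in creatine macrophages and nonclassical monocytes (log2 ratios -2.34 and -1.15).

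Among genes of monocyte identity, the classical list divided. Of 22 tested members, 7 were called higher and 1 lower, with a median log2 ratio of 0.10. *Ifitm6* was at 322 CPM in the control and 896 CPM in the creatine library (log2 ratio 1.48, 1.34 to 1.62). *Mgst1*, *Fn1* (fibronectin), *Hp*, *Plac8* and *S100a4* were also called higher, with log2 ratios from 0.59 to 1.08. When cells were gated after thinning to 4000 UMIs, *Fn1* (0.28), *Hp* (0.30) and *Plac8* (0.53) no longer reached 1.5-fold. *Thbs1* was the member called lower. *Ccr2* (log2 ratio 0.03) and *Chil3* (-0.03) stood near the median of all genes. *Ly6i* was at 129 and 168 CPM, and *Ccr1* at 480 and 346 CPM, below 1.5-fold in both cases. After every cell was thinned to 2000 UMIs, *Ifitm6* was seen in 39.0% of control and 67.0% of creatine classical monocytes, against 0.52% and 0.74% of T cells.

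Genes of nonclassical monocytes were higher in the creatine library. The step that left out cells with 3 or more UMIs of the nonclassical gate genes removed 23 of 206 control and 100 of 489 creatine cells. Cells with fewer such UMIs stayed in, and their part in these values was not tested. Of 14 tested list members, 8 were called higher and 2 lower, with a median log2 ratio of 0.79. *Cx3cr1*, the fractalkine receptor gene, was at 79.6 and 275 CPM (log2 ratio 1.79, 1.52 to 2.07). *Nr4a1* was at 51.1 and 128 CPM, and *Klf2*, a transcription factor gene of patrolling monocytes, at 148 and 304 CPM. *Spn*, *Itgal*, *Pou2f2*, *Hes1* and *Pglyrp1* were also called higher, while *Fabp4* and *Cd36* were called lower. *Fabp4* had 63 UMIs in control and 4 in creatine cells, and 79.4% of the control UMIs lay in 1 cell. T cells also express *Spn*, *Itgal* and *Pglyrp1*. With the T cell level of each library subtracted, 11 members remained above it, 8 of these were higher in the creatine library and the median was 0.67. *Cx3cr1* was far higher in the nonclassical gate itself (528 and 596 CPM), where its values lay within 1.5-fold of each other. After thinning, 13.4% of control and 36.6% of creatine classical monocytes held a *Cx3cr1* UMI, against 10.6% and 8.9% of T cells, some of which make this receptor.

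Macrophage genes were lower in creatine classical monocytes. Of 19 tested list members, none was called higher and 15 were called lower, with a median log2 ratio of -1.23. *Lgmn*, which encodes the lysosomal protease legumain, was at 718 and 236 CPM (log2 ratio -1.60, -1.74 to -1.47). *Mrc1*, the mannose receptor gene, was at 128 and 32.5 CPM, *Trem2*, a lipid-sensing receptor gene, at 128 and 54.7 CPM, and *Apoe* at 3706 and 2272 CPM, a difference under 1.5-fold when cells were gated after thinning (log2 ratio -0.52). The transcription factor gene *Maf* had a log2 ratio of -0.86. In the macrophage gate, where 2.97% of all tested genes were called higher and 3.35% lower, none of the 25 list members was called higher and 2 were called lower, with a median of -0.04. UMIs of some of these genes were also fewer in T cells of the creatine library, and their source there was not tested. *Apoe* was at 71.8 and 31.6 CPM there and *Lgmn* at 31.4 and 12.2 CPM. With the T cell level of each library subtracted, 15 of 16 members that remained above it were lower in the creatine library, and the median was -1.26.

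Transcription factors of myeloid cells were called higher for 10 and lower for 4 of 30 list members, with a median log2 ratio of 0.43. Besides *Nr4a1* and *Klf2*, the members called higher were *Cebpb* and *Cebpd*, which act in monocyte differentiation, *Irf1*, *Irf8*, *Nfkb1*, *Nfkbiz*, *Batf3* and the immediate early gene *Egr1*. *Irf8*, required for the monocyte and cDC1 lineages, was at 290 and 487 CPM. *Cebpb* was at 644 and 1019 CPM. *Maf*, *Bhlhe40* and *Id2* were among the members called lower. *Spi1*, which encodes the lineage factor PU.1, was at 432 and 605 CPM and did not reach 1.5-fold.

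**Figure D3:**
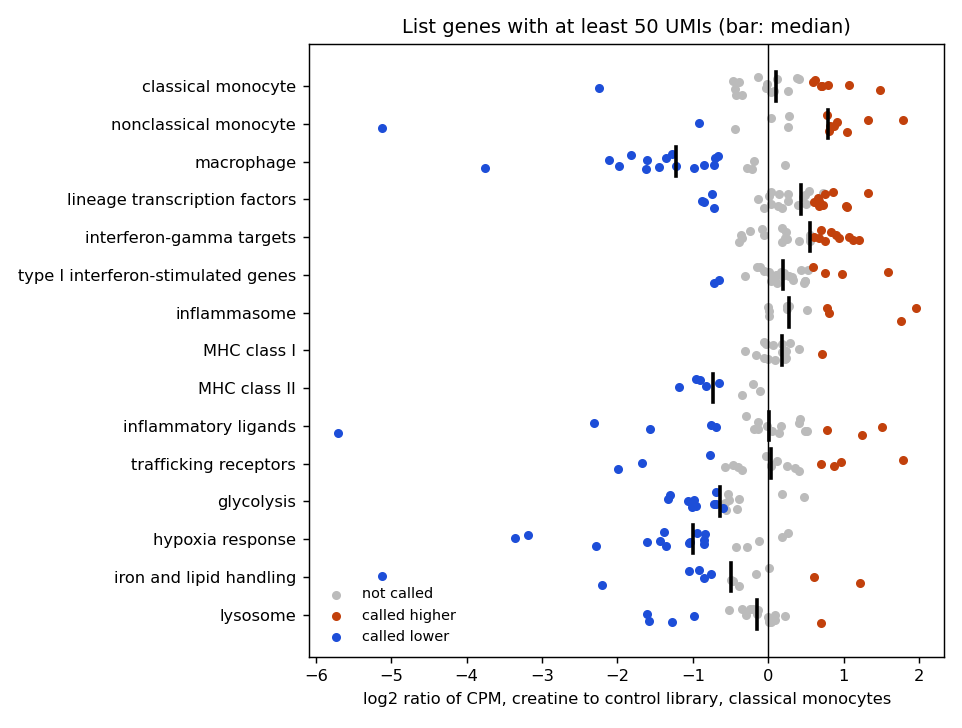
Log2 ratio of CPM, creatine to control library (x axis), of each gene with at least 50 UMIs in 15 gene lists (rows) in classical monocytes, with orange points called higher, blue points called lower, gray points not called and a black bar at the list median. The macrophage and hypoxia lists lie mostly left of 0 (medians -1.23 and -0.997), and the nonclassical and interferon-γ lists mostly right (0.79 and 0.55).

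Some interferon-γ targets were called higher in the creatine library. Of 25 tested members, 10 were called higher and none lower, with a median log2 ratio of 0.55. The median was 0.26 in the 137 control and 214 creatine cells with fewer than 5 UMIs of T, NK and B cell markers, 0.31 in cells with no UMI of *Mki67* or *Top2a*, and 0.36 with a *Ly6c2* and *Vcan* minimum of 8. Summed NK cell markers were also higher in the creatine gate (162 and 393 CPM), as were B cell markers (80.2 and 243 CPM). *Cxcl10*, which encodes a chemokine that attracts CXCR3+ T cells, was at 786 CPM in the control and 1403 CPM in the creatine library (log2 ratio 0.84, 0.75 to 0.93), but fell short of 1.5-fold with the *Ly6c2* and *Vcan* minimum of 8 (0.46). Its neighbor *Cxcl9* was at 896 and 1316 CPM and did not reach 1.5-fold (log2 ratio 0.55). Its log2 ratio was 0.69 without the cell with the most *Cxcl9* UMIs in each library, 0.81 when cells were gated after thinning to 4000 UMIs, and 0.14 in cells with fewer than 5 lymphocyte marker UMIs. Both genes lie on the minus strand of chromosome 5, at chr5:92346638-92348889 and chr5:92321347-92328079. *Gbp5*, a guanylate-binding protein gene, was at 84.8 and 185 CPM. *Socs1*, a feedback inhibitor of interferon signaling (chr16:10782240-10785536), was at 104 and 199 CPM. *Irf1*, *Irf8*, *Igtp*, *Irgm1*, *Irgm2*, *Gbp6* and *Tgtp2* were also called higher. Gating after thinning ended the calls of *Irf1* (log2 ratio 0.32 instead of 0.68) and *Irf8* (0.53 instead of 0.75), and *Irf1* was also under 1.5-fold in cells with fewer than 5 lymphocyte marker UMIs (0.58). *Gbp8*, *Gbp9*, *Fcgr4*, *Il18bp*, *Psmb8* and *Ciita* had log2 ratios between -0.39 and -0.06. Members of the Gbp, Irgm and Tgtp families resemble each other in sequence, so the split of reads among them is uncertain, and *Gbp6* was higher in T cells (15.5 and 17.7 CPM) than in the gate (5.83 and 13.5 CPM). *Cxcl10* was seen in 16.3% of thinned control cells and 33.3% of thinned creatine cells, *Cxcl9* in 26.2% and 29.2%, and *Gbp5* in 8.7% and 21.7%.

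The same direction held in the other gates. In macrophages, 19 of 26 tested members were called higher (median 0.85), and in nonclassical monocytes 19 of 21 (median 1.07). Of all tested genes, 2.97% were called higher in macrophages, and in nonclassical monocytes 5.27% were called higher and 4.15% lower. Type I interferon-stimulated genes had 4 of 28 members called higher and 2 lower, the latter near the 6.01% of all genes, in classical monocytes (median 0.19), against 16 of 29 and 24 of 27 called higher in macrophages and nonclassical monocytes. *Ifi205*, *Phf11b*, *Trim30a* and *Phf11d* were the members called higher in classical monocytes, with *Rsad2* and *Oas1a* called lower. A single control cell held 52.2% of the *Rsad2* UMIs. *Isg15* was at 447 and 623 CPM and *Irf7* at 372 and 381 CPM. Classical monocytes of the control library already carried more of these transcripts than the other gates, with medians of 0.64 against macrophages and 1.46 against nonclassical monocytes. The difference between gates in the creatine ratio was not tested.

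The 5′ flanks of the interferon-γ list were searched for 2 motifs in the 300 bases around each RefSeq start site (250 before to 50 after, GRCm38.p6), on both strands. The ISRE-type motif was GAAA, any 2 bases and GAAA again, bound by interferon regulatory factors, and the GAS-type motif TTCNNNGAA, bound by STAT dimers. The first was present for 12 of the 20 list genes with a promoter entry and for 3.99% of all 27025 genes. The second was present for 10 of 20 and 9.55%. A match is a description and no evidence of binding. The stretches from 250 bases before the start site up to it are shown for *Cxcl10* (chr5:92348890-92349139, minus strand) and *Socs1* (chr16:10785537-10785786, minus strand), as the chemokine and the feedback inhibitor called higher. Capitals mark the ISRE-type motif, of which *Socs1* holds 2 overlapping copies.
Cxcl10: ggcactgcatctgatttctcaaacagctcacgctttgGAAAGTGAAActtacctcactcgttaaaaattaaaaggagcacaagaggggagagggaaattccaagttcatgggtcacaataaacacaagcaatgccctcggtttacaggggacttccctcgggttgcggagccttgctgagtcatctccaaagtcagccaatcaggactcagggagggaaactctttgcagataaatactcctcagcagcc
Socs1: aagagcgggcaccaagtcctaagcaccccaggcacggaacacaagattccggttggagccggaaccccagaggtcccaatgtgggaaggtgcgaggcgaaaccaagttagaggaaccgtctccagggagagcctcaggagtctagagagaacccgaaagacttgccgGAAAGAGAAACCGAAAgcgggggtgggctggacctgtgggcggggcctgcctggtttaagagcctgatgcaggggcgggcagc

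Inflammasome genes were represented by 4 of 11 tested members called higher and none lower, with a median log2 ratio of 0.27. *Casp4*, the sensor of intracellular LPS, was at 47.2 and 183 CPM (log2 ratio 1.95, 1.60 to 2.32). *Casp1*, which cleaves pro-IL-1β, was at 45.3 and 154 CPM (1.76, 1.40 to 2.14). The genes are neighbors on chromosome 9 (chr9:5308828-5336783 and chr9:5298517-5307265). Both were also higher in creatine macrophages and nonclassical monocytes, and in T cells *Casp4* was at 13.1 and 29.4 CPM and *Casp1* at 20.4 and 44.1 CPM. *Il1b* was at 152 and 260 CPM and the DNA sensor gene *Aim2* at 31.1 and 54.5 CPM, close to its level in T cells (46.0 and 49.9 CPM). The *Il1b* log2 ratio of 0.77 was -0.22 when cells were gated after thinning to 4000 UMIs, and 0.34 with a *Ly6c2* and *Vcan* minimum of 3. *Pycard*, the adaptor gene (419 and 419 CPM), and *Nlrp3* (40.8 and 49.2 CPM) were not called.

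MHC class II transcripts were lower in creatine classical monocytes. None of 8 tested members was called higher and 5 were called lower, with a median log2 ratio of -0.74 (-1.14 in cells with fewer than 5 lymphocyte marker UMIs). *H2-Ab1* (chr17:34257689-34269419) was at 3749 and 2008 CPM (log2 ratio -0.90, -0.95 to -0.85). *H2-Eb1* (chr17:34305867-34316674) was at 3059 and 1343 CPM (-1.19, -1.25 to -1.13). *H2-Aa* and *H2-DMb1* were also called lower, while *Ciita*, the class II transactivator gene, was at 214 and 202 CPM. After thinning, *H2-Ab1* was seen in 72.7% of control and 40.8% of creatine classical monocytes and in 13.7% and 5.5% of T cells, and *H2-Eb1* in 62.2% and 32.7%. The order was opposite in nonclassical monocytes, where *H2-Ab1* was at 469 and 1056 CPM, and 6 of 7 tested members were called higher (median 0.84). In macrophages *H2-Ab1* was at 3289 and 2971 CPM. MHC class I genes stayed near the median of all genes, with 1 of 17 members (*H2-Q7*) called higher, a share near the 7.56% of all genes, and a median of 0.18.

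**Figure D4:**
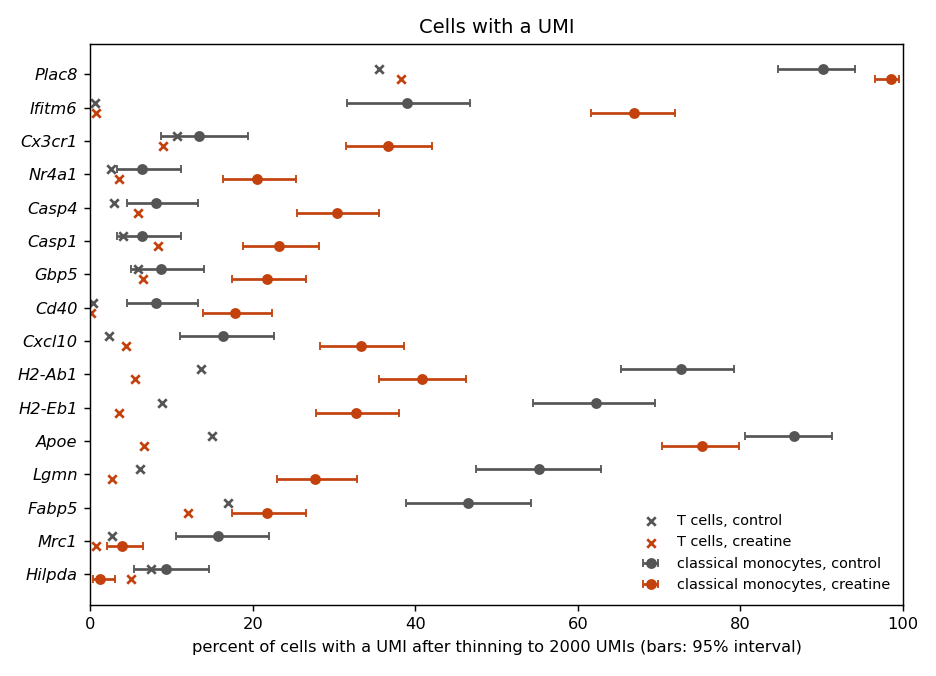
Percent of cells with a UMI (x axis) of 16 genes after each cell was thinned to 2000 UMIs, in classical monocytes (circles with exact 95% intervals) and T cells (crosses) of the control (gray) and creatine (orange) libraries. *Casp4* was seen in 8.1% and 30.4% of classical monocytes and *H2-Ab1* in 72.7% and 40.8%.

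Secreted factors divided in both directions. Of 20 tested inflammatory ligands, 3 were called higher and 5 lower (median 0.02), beside 7.56% and 6.01% of all genes. *Il1b*, *Ccl4* and *Ccl5* were called higher, but *Il1b* turned to lower, as given above, when cells were gated after thinning. *Ccl4* and *Ccl5*, chemokine genes of activated lymphocytes, were seen in 45.1% and 79.7% of thinned creatine T cells but in 10.7% and 12.2% of classical monocytes. In thinned control classical monocytes the shares were 7.0% and 10.5%. Both genes were also higher in T cells of the creatine library, with log2 ratios of 0.89 and 0.69. *Ccl2*, the ligand of CCR2, was at 746 and 441 CPM, and *Ccl7*, *Ccl12* and *Cxcl2* were also called lower. *Cxcl3*, a neutrophil-attracting chemokine gene, had 71 UMIs in control and none in creatine cells, but all 71 lay in 1 cell. Single cells also held 54.9% and 57.4% of the *Cxcl2* UMIs. *Tnf* was at 32.4 and 42.7 CPM, *Il10* had 1 and 3 UMIs, and *Il6* and *Il12b* had none in either library.

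Among 18 tested trafficking receptors, 4 were called higher and 3 lower, with *Cx3cr1*, *Itga4* and *Itgal* among the former. Of all genes, 7.56% were called higher and 6.01% lower. *Itga4*, the integrin chain that binds VCAM1, was at 241 and 471 CPM. The anaphylatoxin receptor genes *C5ar1* (134 and 33.7 CPM) and *C3ar1* (321 and 101 CPM) and the formyl peptide receptor gene *Fpr2* were called lower. *Csf1r*, the M-CSF receptor gene, was at 457 and 447 CPM. Of 14 tested costimulatory and inhibitory molecules, *Cd40* alone was called higher, at 47.2 and 112 CPM, a share near the 7.56% of all genes called higher, and 4 were called lower, among them *Tnfsf9*, *Havcr2* and *Clec4a2*. In cells with fewer than 5 lymphocyte marker UMIs the *Cd40* log2 ratio was 1.75. *Cd86* was at 88.7 and 94.6 CPM and *Cd274* (PD-L1) at 79.0 and 85.5 CPM. Of 24 tested pattern and Fc receptors, 3 were called higher (*Tlr2*, *Nod1* and the adaptor gene *Ticam1*), beside 7.56% of all genes. Lower calls fell on 5 (*Clec4d*, *Clec4n*, *Msr1*, *Fcgr2b* and *Trem2*), beside 6.01% of all genes, and the list median was -0.19. The monocyte-derived DC list had 3 of 6 tested members called higher (*Cd209a*, *Kmo* and *Dpp4*) and 1 lower (*Itgax*). Its median was 0.77 in the whole gate, -0.13 in cells with fewer than 5 lymphocyte marker UMIs and 0.11 in cells with no UMI of *Mki67* or *Top2a*.

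Genes of glucose use and of the hypoxia response were lower in creatine classical monocytes. Of 18 tested glycolysis genes none was called higher and 10 were called lower, with a median log2 ratio of -0.64. *Eno1* was at 483 and 240 CPM, *Gapdh* at 1747 and 1064 CPM, and *Ldha*, which makes lactate, at 702 and 353 CPM. *Hk2* and *Pkm* had log2 ratios of -0.53 and -0.52 and were not called. Of 18 tested hypoxia genes, none was called higher and 13 were called lower (median -0.997). *Bnip3*, a mitophagy receptor gene, was at 136 and 52.1 CPM, and *Mif*, a cytokine gene, at 551 and 203 CPM. *Hilpda*, a lipid droplet regulator gene, was at 90.6 and 9.95 CPM. *Egln3*, which encodes an oxygen-sensing prolyl hydroxylase (chr12:54178981-54203860), was at 28.5 and 5.85 CPM on 44 and 20 UMIs. *Hif1a* itself was at 166 and 189 CPM.

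The same lists had medians nearer to 0 in the other gates, with values of -0.13 (glycolysis) and -0.30 (hypoxia) in macrophages and -0.15 and -0.51 in nonclassical monocytes. In T cells *Eno1* was at 489 and 311 CPM, *Hilpda* at 51.9 and 29.2 CPM, and *Mif* at 884 and 749 CPM. *Gapdh* was slightly higher in creatine T cells (1999 and 2102 CPM), as was *Eno3* (41.0 and 59.3 CPM). *Hilpda* was seen in 1.2% of thinned creatine classical monocytes and in 5.0% of thinned creatine T cells. The difference in the ratio between gates was not tested. A hypoxia-type core motif, ACGTG or GCGTG on either strand, was present in the RefSeq windows of all 15 hypoxia list genes with an entry. It was present for 17 of 19 glycolysis genes and for 46.7% of all genes. The lists hold known genes of these pathways, and all genes were not matched to them by expression or base composition. A match is thus a description and no evidence of regulation. The stretch before the start site of *Egln3* (chr12:54203875-54204124, minus strand) is shown as that of an oxygen sensor gene of the list, with the core in capitals.
Egln3: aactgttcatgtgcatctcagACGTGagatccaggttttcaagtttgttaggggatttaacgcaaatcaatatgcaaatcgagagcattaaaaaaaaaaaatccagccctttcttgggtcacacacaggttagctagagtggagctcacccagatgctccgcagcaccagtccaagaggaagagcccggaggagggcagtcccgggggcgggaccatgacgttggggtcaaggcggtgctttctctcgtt

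Iron and lipid genes followed with 6 of 13 tested members called lower and 2 higher (median -0.50). *Fth1*, the ferritin heavy chain gene, was at 5747 and 3407 CPM, and *Plin2*, which coats lipid droplets, at 315 and 151 CPM. *Trf* (transferrin) and the cholesterol exporter gene *Abcg1* were called higher. Of 19 lysosomal genes, *Ctsd*, *Ctsl*, *Lgmn* and *Cd63* were called lower and *Lipa* alone higher, a share under the 7.56% of all genes. The creatine pathway itself was barely measured. The creatine transporter gene *Slc6a8* had 3 and 2 UMIs in the gate, which is at the level a count of 0 allows, so no difference was detectable at this depth. *Ckb*, the brain-type creatine kinase gene, was at 85.4 and 92.2 CPM (log2 ratio 0.11, -0.19 to 0.41), and none of the 3 tested genes of the list was called. *Gatm* was at 40.8 and 43.0 CPM.

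Immediate early and stress genes, which tissue dissociation can induce, had 6 of 23 members called higher and 1 lower in the creatine gate (median 0.28). *Nr4a1* and *Egr1* belong to this list as well, and *Fos* was at 450 and 454 CPM. In the macrophage gate the list had a median of -0.01, and in the nonclassical gate 0.01. The part of dissociation in the *Nr4a1* and *Egr1* values was not tested.

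**Figure D5:**
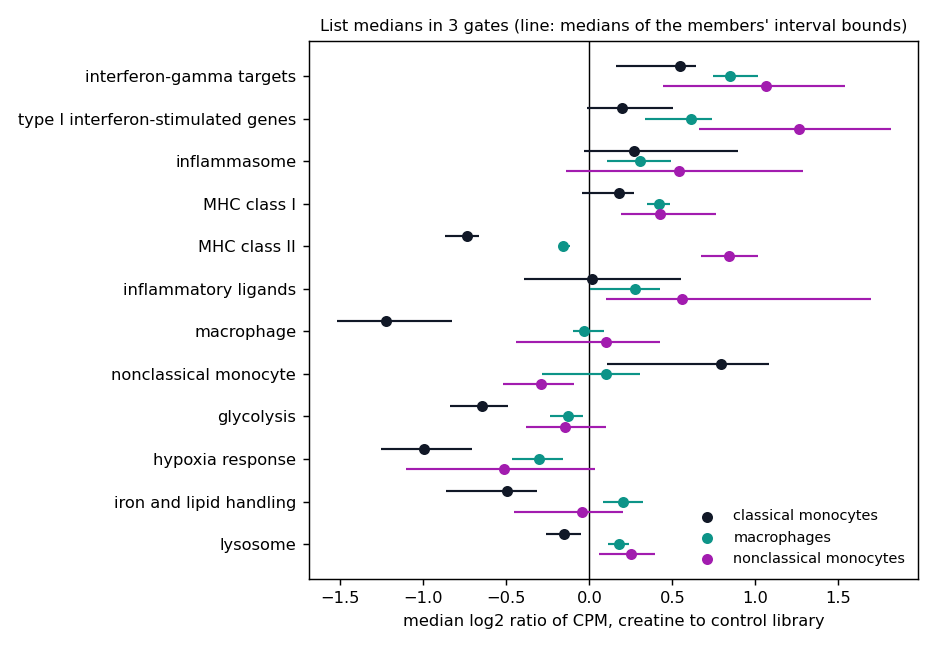
Median log2 ratio of CPM, creatine to control library (x axis), of 12 gene lists (rows) in classical monocytes (black), macrophages (teal) and nonclassical monocytes (purple), with lines that join the medians of the members' interval bounds. MHC class II lies at -0.74 in classical and 0.84 in nonclassical monocytes, and interferon-γ targets lie right of 0 in all 3 gates.

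The comparison was repeated among cells with like numbers of C1q UMIs, since the gate let in up to 9. Among cells with no C1q UMI (74 control and 204 creatine cells), the median log2 ratio was -0.89 for macrophage genes, -0.79 for hypoxia, -0.66 for glycolysis, -0.79 for MHC class II and 0.55 for interferon-γ targets. Among cells with 1 to 3 C1q UMIs (88 and 123 cells) the values were -1.27, -1.16, -0.71, -0.85 and 0.52. Only 13 control and 11 creatine cells held 4 to 9 C1q UMIs. There the values were -0.65, 0.04, -0.21, 0.19 and 0.56, and *Cxcl10* was lower in the creatine library (2450 and 1259 CPM). *Casp4* was higher in the creatine library in each of these groups, with log2 ratios of 1.59, 2.29 and 2.31.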

How the data were processed

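One library of sorted TIIs was measured per group. Per the labels and headers, the authors mapped reads to mm10 with Cell Ranger (3.0.2) and deposited raw UMI counts per gene and cell, without normalization or replicates. Cells with at most 25% mitochondrial UMIs were kept (7241 of 7649 control and 6229 of 6503 creatine cells). Raw counts were summed over each gate and scaled to CPM of 31053 genes. CPM ratios carry exact conditional binomial intervals and shares exact Clopper-Pearson intervals, at 95%, for counting error only. A gene was called at 1.5-fold and at least 50 UMIs with an interval that left out 1, and a count of 0 was set to 3 counts per library. Shares of cells with a UMI were compared after thinning to 2000 UMIs, which left out 3 control and 2 creatine gated cells. Gene lists came from known biology. The cells' rule and the lists were chosen with earlier results of these data known, so no set test was run. The genes named are members of these lists and the 10 highest and 10 lowest log2 ratios of each comparison among genes with at least 100 UMIs (for creatine against control, those whose CPM intervals did not overlap), gate genes left out. Doublets were not removed; the 6% of cells with the highest Scrublet scores were left out as an alternative. Other alternatives changed gate thresholds, filters, scaling (TMM in edgeR 4.0.16, R 4.3.3), minimum counts and fold, and the cells included. The calling step was tested on simulated data. *Mx2*, *Cxcl11* and *Clec7a* were not analysed here. A few genes that meet the naming rule are not reported here. Python 3.11.15, numpy 2.4.6, pandas 2.3.3, scipy 1.17.1, scanpy 1.11.5 and matplotlib 3.10.9 were used.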

Additional observations from a re-analysis of the deposited data

Results flagged for a closer look

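Some gene lists had median log2 ratios of creatine to control with opposite signs in classical monocytes and in another gate. With 1 library per group these differences were not tested. MHC class II genes were at -0.74 in classical and 0.84 in nonclassical monocytes, a difference of -1.58. Nonclassical monocyte genes were at 0.79 in the classical gate and -0.29 in the nonclassical gate, a difference of 1.08. Monocyte-derived DC genes were at 0.77 in classical monocytes and -0.29 in macrophages, a difference of 1.06. Without cells with at least 5 UMIs of T, NK or B cell markers the classical median was -0.13, so that the signs were no longer opposite. In the classical gate, 28 creatine cells held all *Cd209a* UMIs of that library's gate. Iron and lipid handling genes were at -0.50 in classical monocytes and 0.20 in macrophages, a difference of -0.70. Lysosomal genes were at -0.16 in classical monocytes against 0.18 in macrophages (a difference of -0.33) and 0.25 in nonclassical monocytes (-0.41).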

How the results depend on the processing

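With 1 library per group, no replicate could be left out. No paired analysis was possible because each group has 1 library. Against 552 genes called higher and 439 lower, a minimum of 200 UMIs gave 269 and 153, a lower fold threshold gave 948 and 712, and a fold of 2 gave 189 and 149. Leaving out cells with UMIs of at least 2 dividing cell genes left 7 control and 17 creatine cells, and that alternative gave 60 and 44 calls. In those few cells the medians were 0.37 for MHC class I, -0.15 for MHC class II, 0.50 for classical monocyte genes and 0.14 for lysosomal genes, and the log2 ratios were 2.51 for *Ccl2*, 0.79 for *Fabp5*, 0.0886 for *Gapdh*, -0.33 for *Irf1* and -0.10 for *Il1b*. Gating on cells thinned to 4000 UMIs (130 and 298 cells) gave -0.62 for MHC class II, -0.0055 for classical monocyte genes, -0.27 for iron and lipid genes, -0.28 for neutrophil markers and -0.22 for *Il1b*. A minimum of 10 UMIs gave -0.50 for MHC class II and 1.59 for monocyte-derived DC genes. Without cells with at least 5 UMIs of T, NK or B cell markers, an alternative added after seeing the data, these medians were -1.14 and -0.13. Without cells with *Mki67* or *Top2a* UMIs, also added later, the neutrophil marker median was -0.74. A *Ly6c2* and *Vcan* minimum of 3 gave a dividing cell median of -0.59 and a control share of 2.98%, and a minimum of 8 gave shares of 1.73% and 4.46%. A *Lyz2* minimum of 5 gave -0.82 for dividing cell and -1.34 for hypoxia genes, and a C1q limit of 20 gave 0.65 for interferon-γ targets. The causes of these shifts were not tested. Over the alternatives that gave them a value, which leave out the one with 7 and 17 cells, the medians kept their sign for macrophage (-1.41 to -0.86), hypoxia (-1.34 to -0.79), glycolysis (-0.77 to -0.59), interferon-γ (0.26 to 0.65) and nonclassical genes (0.50 to 0.86). The share ratio lay between 2.01 and 2.59 without that alternative and was 2.82 in it. No alternative changed the thresholds of the *Cd3*, nonclassical, *Flt3* or neutrophil gene exclusions. Counting depth limits genes under 50 UMIs, which were not called.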
